A study of Mus musculus with 8 samples.

Results

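The lysosome genes described here are the subunits of its proton pump, the cathepsins, a set of glycosidases, lipid hydrolases and membrane proteins, and the TFEB family of transcription factors. They were taken by name: every gene whose name starts with Atp6v or Atp6ap, every cathepsin named Cts and 1 letter, and 19 genes listed singly. This gave 63 of the 49315 genes in the files, made up of 26 pump and accessory genes (pseudogene and paralogue entries included), 18 cathepsins, 7 glycosidases, 4 genes of lipid breakdown, 5 membrane proteins and 3 regulators. RNA sequencing had been done on immortalized mouse embryonic fibroblasts. One group of 4 libraries is labelled Opa1-/- (knockout-labelled below), and the other group of 4 is labelled Opa1-/- + OPA1, the same genotype with OPA1, the mitochondrial inner-membrane fusion GTPase, put back (reconstituted below). Neither group was treated, both carry the Opa1 deletion by label, and cells without the deletion were not analysed here. The labels do not say how OPA1 was put back, how many lines or clones were used, or whether libraries came from separate cultures, so p-values measure the spread between these libraries only.

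Lysosomes break down proteins, glycans and lipids with hydrolases that work in acid. The V-ATPase makes that acid: its cytosolic V1 sector splits ATP and turns a rotor in the membrane V0 sector that carries protons inward. TFEB, TFE3 and MITF are related helix-loop-helix factors that mTORC1 holds in the cytosol when nutrients are plentiful. Once in the nucleus they bind E-boxes near lysosomal genes and raise their transcription.

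Levels are TPM (transcript abundance per length, summing to the same total in each library) divided by a scaling factor per library, given as mean ± SD with n = 4 libraries per group. A difference is the mean log2(scaled TPM + 1) of the knockout-labelled group less that of the reconstituted group, a scale that understates the change of genes near 1 TPM. Tests were made with limma on the 14272 genes that reached 1 TPM in 4 libraries, with Benjamini-Hochberg adjusted p-values over all of them and a threshold of 0.05. Between 52.9 M and 57.8 M reads stood behind each library, as read from the steps of its low values. The deleted gene, Opa1, was at 14.8, 14.7, 13.7 and 12.5 TPM in knockout-labelled and 15.6, 14.6, 14.6 and 14.5 TPM in reconstituted libraries (-0.09, adjusted p = 0.306). The labels do not say which part of it was removed, so its level does not check them. Markers of fibroblasts were mixed, since Vim, vimentin, was at 1412 ± 108 against 1368 ± 12.0 TPM while Pdgfra and Lum stayed under 1 TPM in both group means. In bulk RNA, fewer cells of a type and less RNA per cell cannot be told apart.

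Of the 63 genes, 49 passed the filter, with 11 called higher and 12 called lower in the knockout-labelled group. The libraries of the groups did not overlap for 25 of the 49. Across all genes tested 33% were called, 16.3% higher and 16.8% lower, and 36.3% did not overlap. The members' counts are somewhat above these shares in each direction. Atp6v1c2, Ctsh and Ctso passed the filter only through the group in which they were high, and were not tested with a filter of 1 TPM in all libraries. The direction differed by class, and less so once each chromosome's median was removed, as given below. The glycosidases had 5 of 7 tested members higher and none lower, the cathepsins 4 of 10 higher and 2 lower, and the pump genes 1 of 20 higher and 5 lower. Of the 5 membrane proteins 2 were lower and none higher, and of the 3 regulators 2 were lower and none higher. The median difference was 0.35 for glycosidases, 0.09 for cathepsins, -0.06 for pump genes and -0.35 for the regulators, against -0.00098 for all genes tested. No test of the difference between classes was made.

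**Figure D1:**
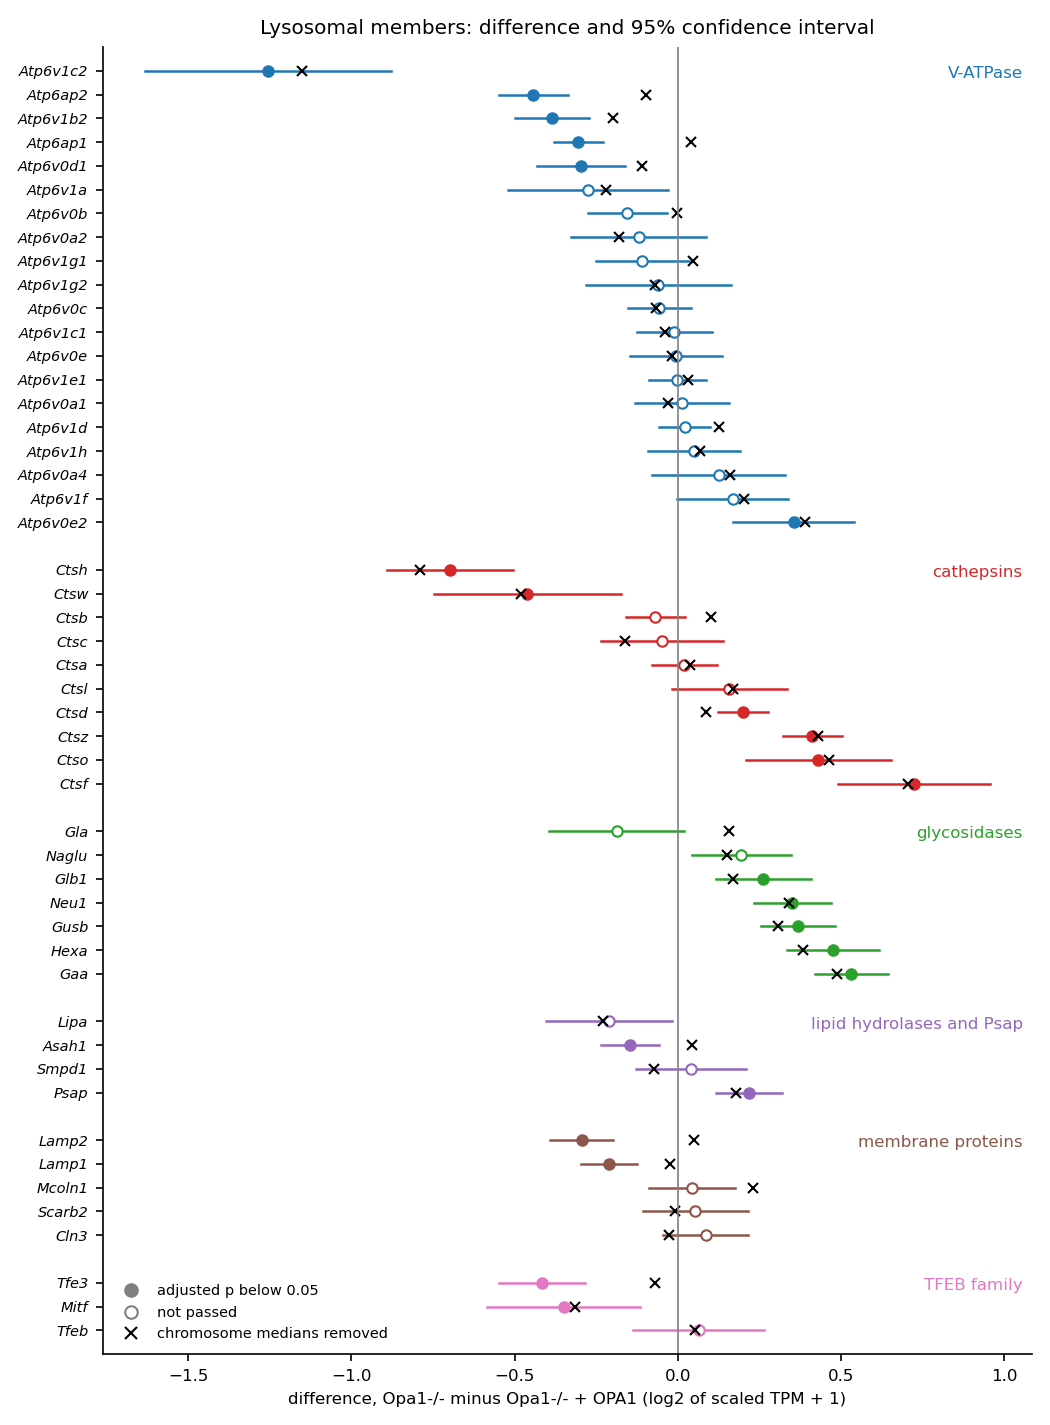
Difference between knockout-labelled and reconstituted libraries for each of the 49 tested members, with its 95% confidence interval, by class, on the log2 scale. Filled circles passed adjusted p below 0.05, open circles did not, and crosses show the value after each chromosome's median was removed. 5 of 7 glycosidases lie to the right with filled circles, while crosses of Tfe3, Atp6ap1, Atp6ap2 and Lamp2 lie near 0.

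The calls ran with the position of the members on the chromosomes, most of all the lower calls. Of the 12 lower members, 4 lie on the X chromosome and 4 on chromosome 8. The median difference was -0.36 over 301 X-linked genes and -0.18 over 524 genes of chromosome 8 (genes with a mean log2 value above 3). In those chromosomes 54.8% and 39.8% of the tested genes were called lower. On chromosomes 7 and 9 the medians were 0.11 and 0.10, and 29.5% and 29.0% of the tested genes were called higher. The higher members Ctsd (7), Hexa and Glb1 (9) lie there, as does the lower Ctsh (9). With each chromosome's median removed, 11 members were higher and 4 lower, where 15.3% and 11.2% of all genes were called, and 13 of the 23 original calls held. The 4 lower calls that held were Atp6v1b2, Atp6v1c2, Ctsh and Ctsw. The 9 higher calls that held were Gaa, Hexa, Gusb, Neu1, Ctsz, Ctsf, Ctso, Psap and Atp6v0e2, and those of Ctsd and Glb1 were lost. Mcoln1 and Atp6v1d passed only under that setting. By class, glycosidases then had 4 higher and 0 lower, cathepsins 3 and 2, and pump genes 2 and 2. Lipid breakdown and membrane proteins each had 1 and 0, and the regulators 0 and 0. The medians were then 0.31 for glycosidases, 0.09 for cathepsins, -0.02 for pump genes and -0.07 for the regulators. Why the genes of whole chromosomes differ between the groups was not tested.

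**Figure D2:**
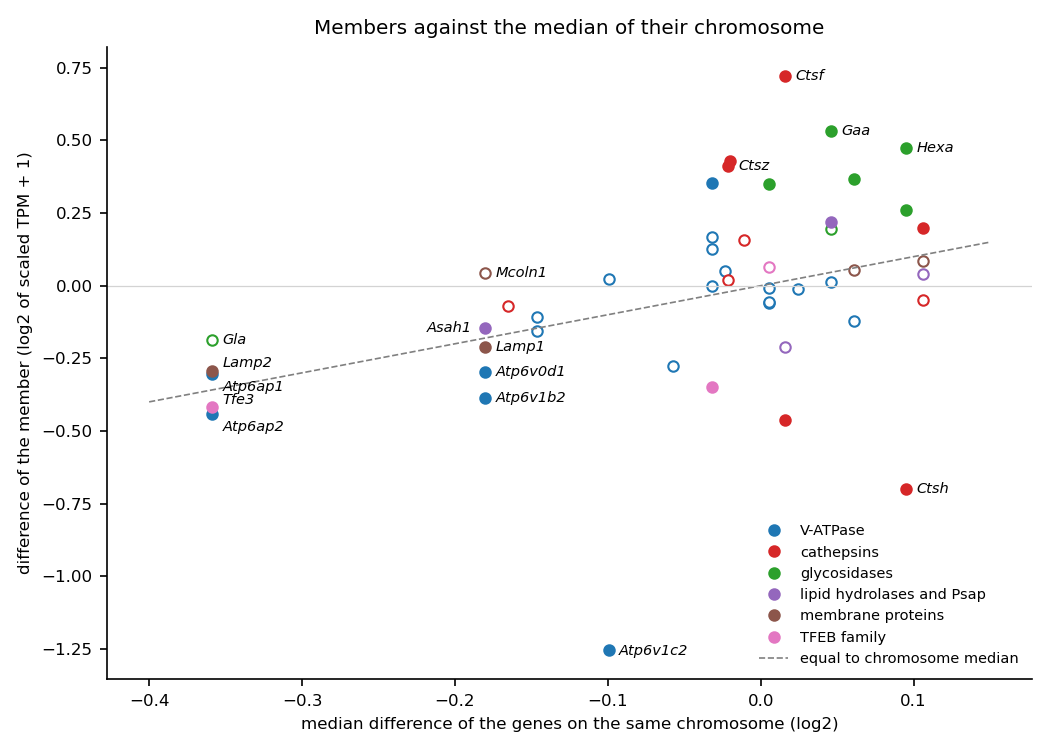
Difference of each tested member (vertical axis, log2 of scaled TPM plus 1) against the median difference of the genes on its own chromosome (horizontal axis, log2), coloured by class, with filled circles for called members. The X-linked members at -0.36 and the chromosome 8 members at -0.18 lie around the dashed line of equality, and Hexa, Gaa, Ctsz and Ctsf lie above it.

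Among the regulators, Tfe3 was the most abundant and fell. Tfe3 (ENSMUSG00000000134; GRCm38 chromosome X, 7762560 to 7775202, plus strand, protein-coding) had levels of 17.97, 16.9, 16.6 and 14.995 TPM in the knockout-labelled group, libraries 1 to 4 in order, and 23.6, 22.2, 22.4 and 21.7 TPM in the reconstituted group. All 4 knockout-labelled libraries were below all reconstituted ones. The difference was -0.42 (SE 0.06, adjusted p = 0.000808). With the X chromosome's median removed it was -0.07 with adjusted p = 0.391.

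Mitf, which in other settings drives the pigment cell program, was near the detection filter. Its values were 2.13, 1.92, 2.46 and 1.84 TPM in the knockout-labelled libraries and 2.67, 2.53, 3.35 and 3.22 TPM in the reconstituted ones (-0.35, SE 0.10, adjusted p = 0.0299). The groups did not overlap, but the call was lost on TPM as deposited (adjusted p = 0.0779), with no filter on low values (0.0875), with chromosome medians removed (0.0560) and without both libraries numbered 3 (0.0603). It was lost as well without any one of knockout-labelled libraries 1, 2 and 4 (0.0548, 0.0714 and 0.0529) and reconstituted libraries 3 and 4 (0.0885 and 0.0842). The melanocyte markers Tyr, Tyrp1 and Dct are listed at 0 in every library, and the 6 melanocyte markers together summed to 0.903 to 1.55 TPM in knockout-labelled and 0.448 to 0.854 TPM in reconstituted libraries.

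Tfeb, the best known of the family, was at 2.07, 2.21, 2.37 and 2.44 TPM in the knockout-labelled libraries and 1.89, 2.15, 2.03 and 2.47 TPM in the reconstituted ones. The ranges overlapped, and the difference was 0.06 (95% confidence interval -0.14 to 0.26, adjusted p = 0.621). Tfe3 was thus the most abundant of the 3 factors per length in every library. The summed level of the 3 was 20.98 ± 1.23 against 27.6 ± 0.537 TPM.

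The family's E-box was looked for in the window from 250 bases before to 50 after each RefSeq start (GRCm38.p6). The core CACGTG and the longer TCACGTGA, which contains that core, are each their own reverse complement, so a match holds on both strands. Of 40 tested members with a window, 15 held CACGTG (37.5%) and 8 held TCACGTGA (20%), against 12.1% and 2.37% of all 9312 tested genes with one. The members with the motif did not share a direction. CACGTG was found in 4 of 11 higher members (Ctsd, Ctsf, Gaa and Glb1), in 2 of 8 lower members (Atp6v0d1 and Lamp1) and in 9 of 21 members without a call. The longer motif was found in 1 of the 11, 1 of the 8 and 6 of the 21. A match is a description of these letters and not a bound site.

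The windows of 2 members that rose (Ctsd and Gaa), 2 that fell (Atp6v0d1 and Lamp1) and 1 without a call (Ctsa) are shown to compare motif and direction. They run from 250 bases before to 20 after the start, 5′ to 3′ on the strand of the gene, with matches to the motifs in capitals. They are chr7:142387808-142388077 (minus strand), chr11:119267713-119267982 (plus), chr8:105566045-105566314 (minus), chr8:13158911-13159180 (plus) and chr2:164833523-164833792 (plus).
Ctsd: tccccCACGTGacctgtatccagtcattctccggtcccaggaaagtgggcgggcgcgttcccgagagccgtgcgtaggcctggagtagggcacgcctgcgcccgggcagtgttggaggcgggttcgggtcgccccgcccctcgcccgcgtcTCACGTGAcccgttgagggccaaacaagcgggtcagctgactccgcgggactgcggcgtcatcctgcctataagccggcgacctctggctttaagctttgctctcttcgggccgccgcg
Gaa: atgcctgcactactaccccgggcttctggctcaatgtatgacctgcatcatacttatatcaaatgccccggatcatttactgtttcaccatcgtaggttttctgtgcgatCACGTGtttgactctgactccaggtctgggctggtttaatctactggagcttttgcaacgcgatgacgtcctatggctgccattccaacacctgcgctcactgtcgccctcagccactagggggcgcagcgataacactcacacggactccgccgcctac
Atp6v0d1: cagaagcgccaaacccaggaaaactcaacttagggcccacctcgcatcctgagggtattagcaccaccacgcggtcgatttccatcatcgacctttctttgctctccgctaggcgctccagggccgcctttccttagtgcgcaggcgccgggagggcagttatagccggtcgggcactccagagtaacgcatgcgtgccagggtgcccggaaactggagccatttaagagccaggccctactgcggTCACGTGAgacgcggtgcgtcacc
Lamp1: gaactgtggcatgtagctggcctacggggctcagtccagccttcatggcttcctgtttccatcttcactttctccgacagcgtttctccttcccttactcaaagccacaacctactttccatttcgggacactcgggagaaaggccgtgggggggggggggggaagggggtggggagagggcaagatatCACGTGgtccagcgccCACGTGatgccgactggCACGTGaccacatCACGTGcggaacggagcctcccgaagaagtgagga
Ctsa: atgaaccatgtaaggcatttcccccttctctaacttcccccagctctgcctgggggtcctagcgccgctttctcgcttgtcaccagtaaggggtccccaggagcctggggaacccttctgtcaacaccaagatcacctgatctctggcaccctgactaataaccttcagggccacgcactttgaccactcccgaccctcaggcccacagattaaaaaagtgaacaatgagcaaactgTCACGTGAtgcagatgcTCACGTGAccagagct
Lamp1 has 4 cores within 61 bases of its start and was lower, and Ctsa, without a call, has 2 copies of the longer motif in the window shown, that of its downstream start. The window of its upstream start holds neither motif. In Ctsd the core of the longer motif begins 98 bases before the start, in Gaa the core begins 140 bases before it, and in Atp6v0d1 it begins 3 bases before it. RefSeq windows were matched for 50 of the 63 members. Members with no window were Asah1, Atp6ap1l, Atp6v0a2, Atp6v0c-ps1, Atp6v0d2, Atp6v1b2, Atp6v1c1, Atp6v1g1, Atp6v1h, Ctsb, Ctse, Ctsh and Ctsw.

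In the V1 sector of the pump, 2 of 10 tested genes were lower and none higher, against 16.8% and 16.3% of all genes. With chromosome medians removed 2 were lower and 1 higher, against 11.2% and 15.3% of all genes. Atp6v1b2, the widely expressed isoform of the B subunit that forms the ATP-splitting head with subunit A, was at 43.0, 41.6, 46.0 and 40.1 TPM in the knockout-labelled and 53.2, 55.8, 56.7 and 58.4 TPM in the reconstituted libraries. The groups were fully apart (-0.39, SE 0.05, adjusted p = 0.000597). It lies on chromosome 8 (69088646 to 69113711, plus strand), and with that chromosome's median removed the difference was -0.20 with adjusted p = 0.0141. Atp6v1a, the catalytic A subunit, was at 40.6, 40.2, 43.6 and 29.7 against 45.4, 42.9, 48.1 and 49.3 TPM. Library 4 of the knockout-labelled group was far below the other 3, and the gene did not pass (-0.28, SE 0.11, adjusted p = 0.0814). It passed in 1 of the 8 fits that each left out 1 library (adjusted p = 0.0477).

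The other V1 subunits with a broad expression did not pass. Atp6v1g1, a stalk subunit and the most abundant pump gene, was at 292, 318, 282 and 346 TPM in the knockout-labelled and 335, 345, 321 and 330.1 TPM in the reconstituted libraries (-0.11, adjusted p = 0.225). The ranges overlapped, with knockout-labelled library 4 highest of all 8. Atp6v1g1 passed in 1 of the 8 fits that each left out 1 library (adjusted p = 0.0229). Atp6v1f was at 235, 255, 235 and 301 against 230.4, 233, 218 and 226 TPM (0.17, adjusted p = 0.117), without overlap. Atp6v1c1, Atp6v1d, Atp6v1e1 and Atp6v1h had differences between -0.01 and 0.05, with 95% confidence intervals that reached no further than -0.12 and 0.19.

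Tissue-restricted V1 isoforms were low. Atp6v1c2, a C subunit isoform known from kidney and lung, had the largest difference of all members, at 1.21, 0.347, 1.02 and 1.17 TPM against 3.49, 4.19, 3.54 and 3.01 TPM (-1.26, SE 0.17, adjusted p = 0.000639). All knockout-labelled libraries were below all reconstituted ones, and library 2 rested on 13.7 recovered reads. The isoform gave 0.737% ± 0.333 of the summed C subunit TPM in knockout-labelled and 2.69% ± 0.400 in reconstituted libraries, so Atp6v1c1 made up nearly all of it in both. Its exons overlap those of Pdia6 on the opposite strand over 2.30% of their length, Pdia6 was at 225 against 325 TPM (-0.53, adjusted p = 0.000180), and strand-specific counting is not stated. Reads of the 2 genes in that stretch cannot be told apart. Atp6v1g2, the neuronal G isoform, was at 3.20 ± 0.304 against 3.39 ± 0.508 TPM. Nfkbil1, on the opposite strand, covers 5.74% of the exon length of Atp6v1g2 and was higher (0.28, adjusted p = 0.00272).

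In the V0 sector 1 of 8 tested genes was higher and 1 lower, against 16.3% and 16.8% of all genes. With chromosome medians removed 1 was higher and 0 lower, against 15.3% and 11.2% of all genes. Atp6v0d1, the d subunit that links rotor and stalk, was at 56.3, 59.4, 63.9 and 63.7 TPM in the knockout-labelled and 72.5, 69.5, 77.4 and 80.4 TPM in the reconstituted libraries. The groups did not overlap (-0.30, SE 0.06, adjusted p = 0.00502). It is also on chromosome 8 (105524465 to 105566047, minus strand), and with the median of that chromosome removed it was at -0.11 with adjusted p = 0.214.

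Atp6v0e2, a brain-enriched isoform of the small e subunit, went the other way. It was at 7.45, 8.15, 8.44 and 8.44 TPM against 5.29, 7.06, 5.97 and 6.28 TPM (0.36, SE 0.08, adjusted p = 0.00981), and the call was lost (0.0642) without both libraries numbered 3. It gave 16.3% ± 1.57 of the summed e subunit TPM in knockout-labelled and 12.7% ± 1.08 in reconstituted libraries, and these shares did not overlap. Atp6v0e itself was at 41.9 ± 3.67 against 42.0 ± 1.21 TPM.

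Atp6v0b, a rotor subunit on chromosome 4, was at 124, 124, 127 and 139.6 TPM against 138, 137, 145 and 154 TPM. The ranges overlapped, and the adjusted p was 0.0520, or 0.0142 with the replicate number as a block. Atp6v0b also passed in 1 of the 8 fits that each left out 1 library (adjusted p = 0.00955). Its difference was -0.00092 with chromosome medians removed. The 4 a subunit isoforms of the V0 sector kept like shares, counting Tcirg1, which encodes the a3 isoform and is not named as an Atp6 gene. Atp6v0a1 gave 20.6% ± 1.42 of their summed TPM in knockout-labelled libraries, Atp6v0a2 35.9% ± 4.34, Tcirg1 38.9% ± 3.93 and Atp6v0a4 4.49% ± 0.528. In reconstituted libraries the shares were 19.9% ± 0.983, 38.0% ± 0.819, 38.2% ± 1.22 and 3.90% ± 0.319. D630045J12Rik, at 15.3 against 14.2 TPM, covers 5.21% of the exon length of Atp6v0a4 on the same strand, so the share of Atp6v0a4 is uncertain. Atp6v0c, the main rotor subunit, was at 21.2 ± 0.861 against 22.1 ± 0.441 TPM. Of the words of 50 bases in its transcripts, 10.8% recur in transcripts of other genes, so its level is uncertain. The same holds for Ctsd (32.4%), Ctsl (26.3%), Atp6v1g1 (19.2%), Ctsb (12.1%), Ctsa (11.6%), Atp6v1f (11.2%) and Hexa (10.6%).

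Both tested accessory genes were lower, against 16.8% of all genes and 54.8% of X-linked ones. Atp6ap1, which helps assemble V0, was at 135, 140.0, 138 and 144 TPM in the knockout-labelled and 173, 169.8, 174 and 173 TPM in the reconstituted libraries (-0.30, SE 0.03, adjusted p = 0.000246). Atp6ap2, the (pro)renin receptor, was at 97.2, 108, 99.4 and 97.6 against 129, 136, 141 and 142 TPM (-0.44, SE 0.05, adjusted p = 0.000217). Neither pair of groups overlapped. Both genes are X-linked, and less the median of X their differences became 0.04 (adjusted p = 0.397) and -0.10 (adjusted p = 0.143). Over all 26 pump and accessory genes the summed level was 1552 ± 60.3 against 1667 ± 22.1 TPM, a change of -6.87%. That of the accessory genes alone was -22.4%.

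**Figure D3:**
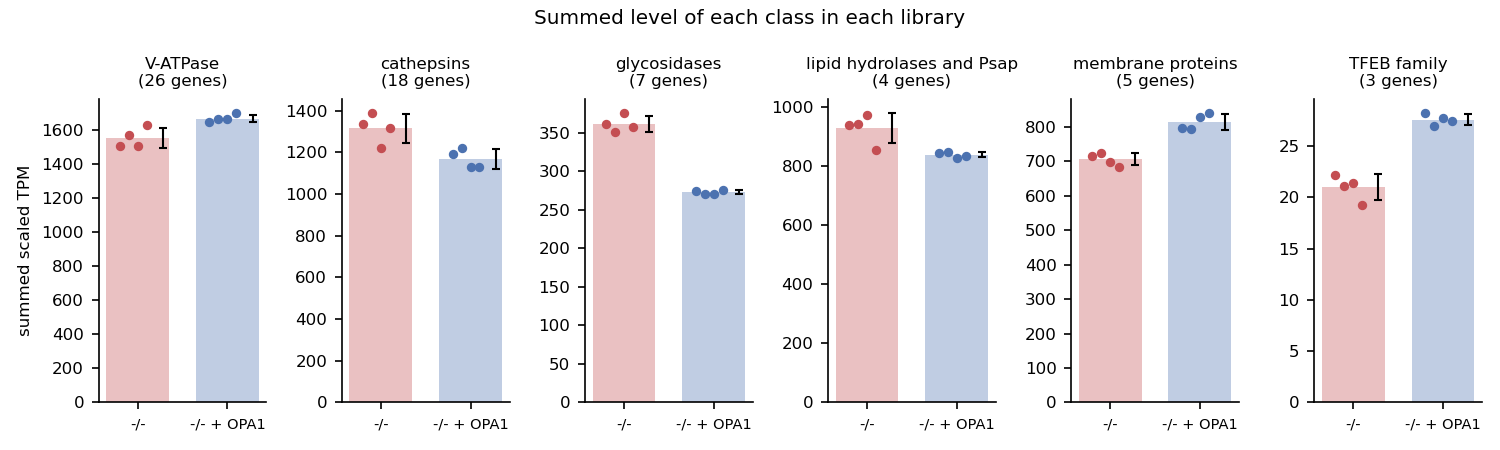
Summed scaled TPM of all members of each class in each library, with points for libraries 1 to 4 from left to right, bars from 0 for the group mean and error bars for the SD. Glycosidases lie at 350.2 to 375 TPM in the knockout-labelled libraries, above the 271 to 276 TPM of the reconstituted ones, while membrane proteins and the TFEB family lie lower.

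The membrane proteins repeated this pattern of position. Lamp1, the most abundant glycoprotein of the lysosomal membrane, was at 599, 607, 579 and 573 TPM in the knockout-labelled and 664, 666, 692 and 704 TPM in the reconstituted libraries (-0.21, SE 0.04, adjusted p = 0.00319). Lamp2, a receptor for chaperone-mediated autophagy in one of its forms, was at 78.1, 81.5, 80.1 and 73.8 against 95.4, 92.4, 99.3 and 98.0 TPM (-0.29, SE 0.04, adjusted p = 0.000953). The groups were apart for both. Lamp1 is on chromosome 8 and Lamp2 on X, and relative to their chromosomes they lay at -0.02 (adjusted p = 0.675) and 0.05 (adjusted p = 0.382).

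Mcoln1, the lysosomal calcium channel TRPML1, is on chromosome 8 too but was at 18.03 ± 1.25 against 17.4 ± 0.815 TPM (0.04, adjusted p = 0.612). With the median of chromosome 8 removed it was 0.23 higher with adjusted p = 0.0259. Scarb2, the LIMP-2 receptor that carries glucocerebrosidase, was at 12.5 ± 1.16 against 12.0 ± 0.599 TPM. Cln3, a protein lost in juvenile Batten disease, was at 7.44 ± 0.477 against 6.95 ± 0.179 TPM. Neither passed.

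Of 10 tested cathepsins, 4 were higher, 2 lower and 4 without a call, where 16.3% of all genes were higher and 16.8% lower. Ctsl, a cysteine protease and the most abundant cathepsin, was at 662, 731, 561 and 635 TPM in the knockout-labelled and 592, 617, 552 and 552 TPM in the reconstituted libraries. The ranges overlapped (0.16, SE 0.08, adjusted p = 0.155), and with the replicate number as a block the adjusted p was 0.0449. The same difference reached 0.22 (adjusted p = 0.0284) without knockout-labelled library 3. Antisense Gm47123 covers 26.8% of the exon length of Ctsl, so the level is uncertain where reads were not separated by strand.

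Ctsz, a carboxypeptidase of the same family, rose. It was at 245, 234, 233 and 250.1 TPM against 178, 190.1, 176 and 178 TPM, with all knockout-labelled libraries above all reconstituted ones (0.41, SE 0.04, adjusted p = 0.000138). It lies on chromosome 2 (174427493 to 174439039, minus strand) and was as high, at 0.43, with chromosome medians removed. Ctsd, the main aspartic protease of the lysosome, was at 188, 185, 188 and 197 against 169, 165, 163 and 163 TPM (0.20, SE 0.03, adjusted p = 0.00223). The groups were apart. The median of chromosome 7, where it lies, was 0.11, and with chromosome medians removed Ctsd was at 0.09 with adjusted p = 0.0789. Gm49369, on the same strand, shares 34.4% of the exon length of Ctsd, so part of its reads may be counted elsewhere.

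Among the low cathepsins, Ctsf, a cysteine protease, was at 3.21, 3.19, 3.81 and 2.82 TPM against 1.35, 1.83, 1.72 and 1.42 TPM. Its mean was 106% above that of the reconstituted libraries, and the groups did not overlap (0.72, SE 0.10, adjusted p = 0.000909). Ctso was at 1.54, 1.38, 1.62 and 1.42 against 0.735, 0.999, 0.766 and 0.892 TPM (0.43, SE 0.10, adjusted p = 0.00924), and the call was lost (0.0657) without both libraries numbered 3.

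Ctsh, an aminopeptidase, moved in the opposite direction, at 1.16, 1.03, 1.10 and 1.145 TPM against 2.53, 2.502, 2.13 and 2.53 TPM. The groups were far apart for so low a gene (-0.70, SE 0.09, adjusted p = 0.000421). Its lowest library rested on 84 recovered reads. Ctsw, best known from cytotoxic lymphocytes, was at 6.13, 5.25, 4.79 and 5.94 against 8.83, 9.93, 6.46 and 7.02 TPM (-0.46, SE 0.13, adjusted p = 0.0219). The Ctsw call was lost without knockout-labelled library 2 or 3 (0.0536 and 0.0537), without reconstituted library 1 or 2 (0.0618 and 0.0511) and with no filter on low values (0.0591). Its exons share a short stretch with Fibp on the opposite strand, and Fibp was higher (0.35, adjusted p = 0.00520).

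The remaining tested cathepsins had no call. Ctsb, one of the major cysteine proteases, was at 131 ± 5.54 against 137 ± 2.97 TPM, Ctsa at 84.5 ± 4.38 against 83.3 ± 2.22 TPM and Ctsc at 10.4 ± 1.01 against 10.8 ± 0.957 TPM. Antisense genes cover 12.8% of the exon length of Ctsb (Fdft1) and 17.4% of that of Ctsa (Pltp and Neurl2). Fdft1 was lower (-0.39, adjusted p = 0.00875) and Pltp higher (0.36, adjusted p = 0.000386). Taken as a sum, the 18 cathepsins were at 1316 ± 69.5 against 1169 ± 45.8 TPM. The ranges of this sum overlapped (1221 to 1388 against 1129 to 1222 TPM), and Ctsl, which had no call, was its largest part.

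Genes under the filter included the cathepsins of other cell types. Ctsj, Ctsm, Ctsq and Ctsr, known from placenta, and Ctsg of neutrophils are listed at 0 in all 8 libraries. Ctss, a macrophage cathepsin, reached 0.152 TPM at most. The 12 leukocyte markers summed to 6.13 to 11.5 TPM in knockout-labelled and 7.19 to 9.31 TPM in reconstituted libraries. Cd68 was the highest of these markers at 4.25 ± 2.24 against 4.46 ± 1.04 TPM, followed by Fcer1g at 1.84 ± 0.316 against 1.33 ± 0.266 TPM. Ptprc, Adgre1 and Itgam had group means of at most 0.0108 TPM. Ctsk, abundant in osteoclasts, ranged from 0.321 to 1.26 TPM, and Ctse from 0.0508 to 0.384 TPM. Of pump genes, Atp6v1b1 of kidney and inner ear ranged from 0.0865 to 0.298 TPM, and Atp6v1g3 was at 0 throughout. Atp6v0d2 of osteoclasts had a value in 1 library, at 0.0399 TPM. Atp6v1e2, Atp6ap1l and the pseudogene Atp6v0c-ps1 stayed at or below 0.240 TPM.

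The glycosidases, which strip sugars from glycans and glycolipids, were the class with the highest median. Gaa, the acid alpha-glucosidase that degrades glycogen, was at 92.7, 87.3, 91.7 and 80.1 TPM in the knockout-labelled and 61.4, 58.7, 60.5 and 61.1 TPM in the reconstituted libraries. Its mean was 45.6% higher, and the groups were far apart (0.53, SE 0.05, adjusted p = 0.000108). Gaa lies on chromosome 11 (119267887 to 119285454, plus strand), and with chromosome medians removed it was at 0.49 with adjusted p = 0.000150.

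Hexa, the alpha subunit of the beta-hexosaminidase that breaks down GM2 ganglioside, was at 118, 118, 136 and 134 TPM against 84.9, 88.6, 92.7 and 96.8 TPM. It was 39.6% higher in mean (0.48, SE 0.06, adjusted p = 0.000597). Libraries 3 and 4 were above 1 and 2 in both groups, and the groups stayed apart.

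Gusb, beta-glucuronidase, was at 58.5, 58.0, 58.5 and 51.9 TPM against 45.3, 45.0, 42.2 and 42.1 TPM (0.37, SE 0.05, adjusted p = 0.000767). Knockout-labelled library 4 was the lowest of its group and still above every reconstituted one. Neu1, the lysosomal sialidase, was at 27.1, 27.5, 26.0 and 29.7 against 22.3, 20.2, 21.7 and 21.4 TPM (0.35, SE 0.05, adjusted p = 0.00107). Glb1, beta-galactosidase, was at 35.9, 30.04, 35.5 and 32.9 against 29.2, 28.9, 26.3 and 26.8 TPM (0.26, SE 0.06, adjusted p = 0.0134). No library of one group reached into the other for these 3 genes. Glb1 was the least stable of them, with adjusted p = 0.0507 on TPM as deposited, 0.0891 without both libraries numbered 3 and 0.0774 with chromosome medians removed. Neu1 and Glb1 work in a complex with protective protein, the product of Ctsa, and that gene was level between the groups.

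The glycosidases without a call were Naglu and Gla. Naglu, which degrades heparan sulfate, was at 12.8, 11.8, 14.4 and 14.3 against 11.9, 11.1, 11.4 and 11.5 TPM (0.20, SE 0.07, adjusted p = 0.0505). It sat at the threshold, and passed with upper-quartile scaling (0.0359), a pseudocount of 0.1 TPM (0.0493), a filter of 1 TPM in all libraries (0.0487) and without knockout-labelled library 2 (0.0168). Gla, alpha-galactosidase A, is X-linked and was at 16.4, 17.1, 13.1 and 13.999 against 18.8, 18.4, 16.1 and 16.0 TPM. The ranges overlapped (-0.19, SE 0.09, adjusted p = 0.151), libraries 3 and 4 were the lower ones of both groups, and with the replicate number as a block the adjusted p was 0.0302. Relative to its chromosome it was at 0.16 (adjusted p = 0.231). The 7 genes together were at 361 ± 10.4 against 273 ± 2.38 TPM, which is 32.3% higher.

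Genes of lipid breakdown were split. Psap, the precursor of the saposins that present sphingolipids to their hydrolases and the most abundant member in knockout-labelled libraries, was at 768, 768, 789.7 and 698 TPM against 656, 656, 637 and 647 TPM. Every knockout-labelled library was higher (0.22, SE 0.04, adjusted p = 0.00578). Asah1, acid ceramidase, was at 113, 115, 120.0 and 109.8 against 128, 126, 130.2 and 122 TPM (-0.15, SE 0.04, adjusted p = 0.0204). It is on chromosome 8, and with that median removed it was at 0.04 (adjusted p = 0.433). Its call was lost on TPM as deposited (0.182), and when either the first knockout-labelled library (0.0533) or one of reconstituted libraries 1, 2 and 3 (0.0581, 0.0523 and 0.0680) was left out.

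Lipa, acid lipase, was at 37.8, 38.5, 40.4 and 29.9 against 41.2, 43.7, 40.5 and 43.9 TPM. Knockout-labelled library 4 was the low one, and the gene did not pass (-0.21, adjusted p = 0.0905). Smpd1, acid sphingomyelinase, was at 19.9 ± 2.04 against 19.3 ± 0.958 TPM (0.04, adjusted p = 0.723).

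**Figure D4:**
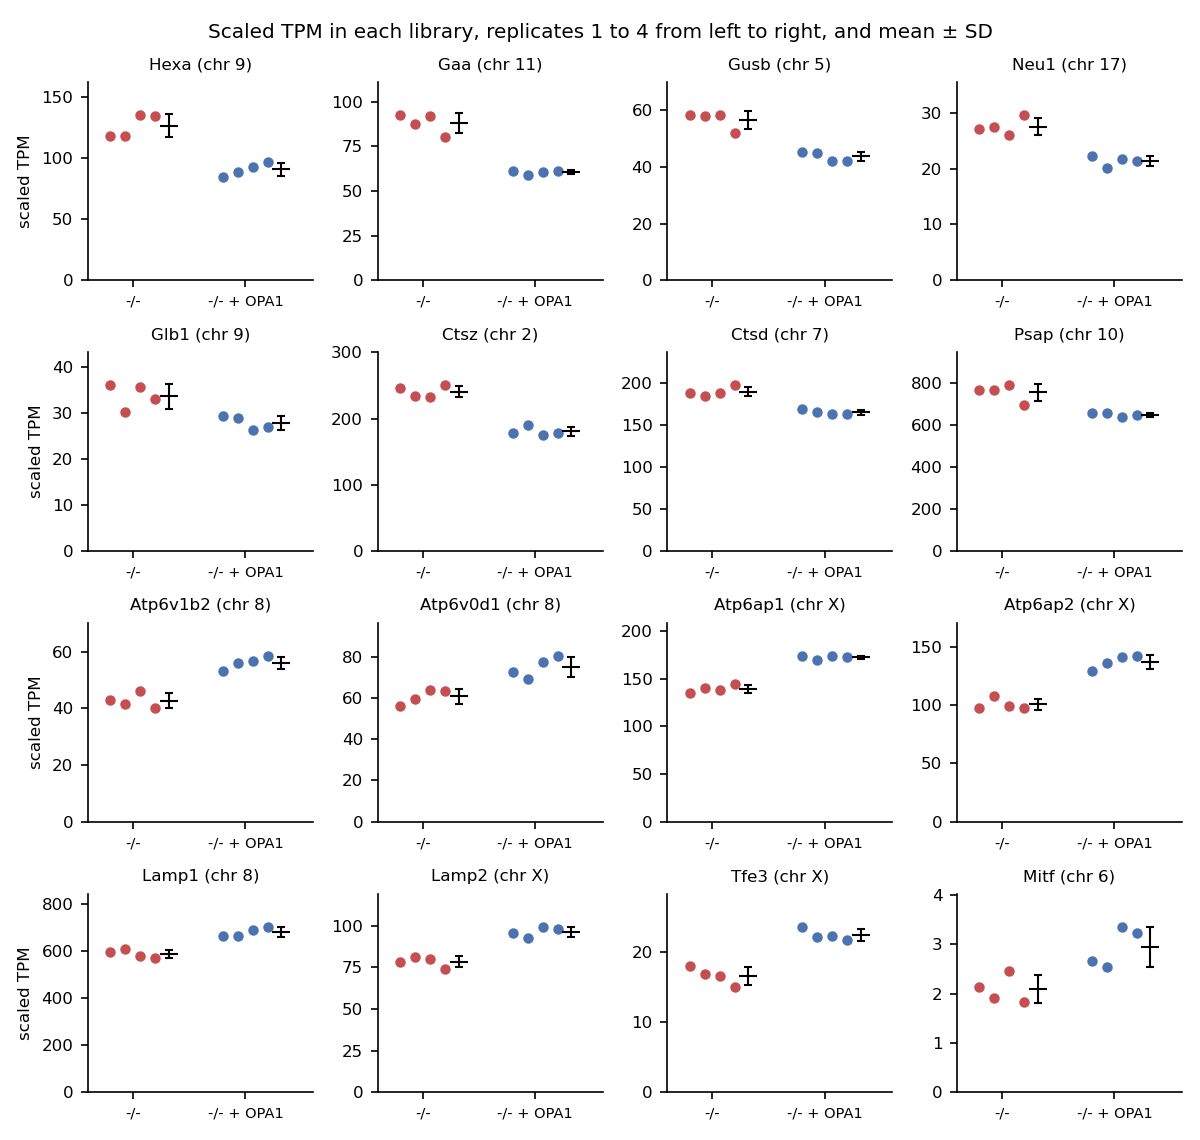
Scaled TPM of 16 members in each library, with knockout-labelled libraries in red, reconstituted libraries in blue, and mean ± SD beside them in black (chromosome in each title, axes from 0). All 16 were called and are among the 25 of 49 tested members whose groups did not overlap. In each panel the 4 libraries of one group therefore lie on one side of the other group. Those of Hexa, Gaa, Gusb, Neu1, Glb1, Ctsz, Ctsd and Psap are higher in the knockout-labelled group, and the other 8 are lower.

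Knockout-labelled library 4 stood apart for long and short genes. Over the 49 tested members, the deviation of this library from the other 3 of its group ran against exon length (Spearman rho -0.47, and -0.43 over 14231 tested genes with a known length, which share this one library). Atp6v1a, Atp6v0a2 and Lipa, with 6044, 6726 and 6780 exon bases, deviated by -0.47, -0.40 and -0.37 on the log2 scale. Atp6v1f and Atp6v1g1, with 1063 and 1135 bases, deviated by 0.32 and 0.22. With each library's trend with length and GC content removed, 11 members were higher and 14 lower, where 19.7% and 16.2% of all genes were called, and all 23 original calls held. The pump genes then had 1 of 20 higher and 7 lower.

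Other genes of the pathway came from lists written with earlier results of these data known. Of 42 tested lysosomal hydrolases and activators outside the set above, 16 were higher and 4 lower, with a median of 0.18, against 16.3% and 16.8% of all genes. The counts were 16 and 3 with chromosome medians removed. Idua, alpha-L-iduronidase, was at 3.11 ± 0.308 against 1.89 ± 0.153 TPM (0.51, adjusted p = 0.00224), and Sgsh, heparan N-sulfatase, at 5.13 ± 0.526 against 3.43 ± 0.218 TPM (0.47, adjusted p = 0.00244). Cpq, a carboxypeptidase, rose by 0.40 (adjusted p = 0.000353). The lower ones were Ids, Pla2g15, Gm2a and Lgmn. Ids, iduronate sulfatase, is X-linked and was at 19.2 ± 1.69 against 31.8 ± 0.709 TPM (-0.70, adjusted p = 6.82e-05). It was also lower relative to its chromosome, at -0.36 with adjusted p = 0.00260. Pla2g15, a lysosomal phospholipase, fell by 0.44 (adjusted p = 0.000188), and Gm2a, the GM2 activator that works with hexosaminidase, fell by 0.28 (adjusted p = 0.0205).

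Other lysosomal membrane proteins and channels had 6 of 41 higher and 5 lower, with a median of -0.03. These counts were not above the shares of all genes (16.3% and 16.8%). With chromosome medians removed 7 were higher and 6 lower, near the shares of all genes there (15.3% and 11.2%). Cln6 was at 16.1 ± 0.874 against 11.6 ± 1.83 TPM, Tmem175, a proton and potassium channel, at 5.04 ± 0.403 against 3.89 ± 0.159 TPM, and Laptm4b at 72.7 ± 2.27 against 60.1 ± 1.95 TPM. Tmem97, a sterol-regulated protein that binds NPC1, fell by 0.40, Dmxl2, of the complex that assembles V-ATPase, by 0.38, and Slc36a1, an amino acid exporter, by 0.36 (adjusted p = 5.01e-05, 0.00372 and 0.00259).

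Genes that sort hydrolases to lysosomes had 9 of 29 higher and 6 lower, against 16.3% and 16.8% of all genes. With chromosome medians removed the counts were 5 and 3, near the shares of all genes there (15.3% and 11.2%). Both sortilin family receptors rose. Sorl1 was at 3.66 ± 0.580 against 1.57 ± 0.171 TPM (0.85, adjusted p = 0.000446), and Sort1 at 4.47 ± 0.594 against 2.24 ± 0.220 TPM (0.75, adjusted p = 0.000569). Gnptg, a subunit of the phosphotransferase that makes the mannose phosphate tag, rose by 0.27 (adjusted p = 0.0116) while Gnptab, which encodes its catalytic part, fell by 0.26 (adjusted p = 0.0154). The larger falls were those of Ap1g1, a subunit of the AP-1 adaptor, by 0.39 (adjusted p = 0.00339) and Vps35, of the retromer, by 0.29 (adjusted p = 0.0239). Both genes sit on chromosome 8, and neither kept its call once that shift was taken out. Ap1g1 then lay at -0.20 (adjusted p = 0.0510) and Vps35 at -0.10 (adjusted p = 0.349). Gnptab, on chromosome 10, kept its call at -0.30 (adjusted p = 0.00619).

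Among genes of mTORC1, the Rag GTPases and other control of TFEB, 8 of 41 were higher and 8 lower (6 and 6 with chromosome medians removed), near the shares of all genes (16.3% and 16.8%, or 15.3% and 11.2%). Sesn2, a leucine sensor and stress-induced inhibitor of mTORC1, was at 29.4 ± 4.40 against 17.4 ± 1.46 TPM (0.72, adjusted p = 0.000810). Akt1s1, the mTORC1 component PRAS40, was at 95.6 ± 1.13 against 69.0 ± 2.22 TPM (0.46, adjusted p = 4.38e-05), and Lamtor2, of the Ragulator that anchors mTORC1, rose by 0.29 (adjusted p = 0.0102). Ppp3cb, a catalytic subunit of calcineurin, which dephosphorylates TFEB, fell by 0.31 (adjusted p = 0.00165), Ywhaq, a 14-3-3 protein, by 0.26 (adjusted p = 0.000524) and Rragc by 0.26 (adjusted p = 0.00285). Relative to its chromosome Rragc was at -0.11 with adjusted p = 0.0953. Of 6 tested inhibitors of cathepsins, Cst6, Serpinb6b and Serpinb9 were higher and Serpinb6a lower.

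Some markers of other cells were called as well, in a number near the share of all genes. Of the tested markers 2 of 3 epithelial, 1 of 2 osteoclast, 1 of 4 neuronal and the 1 trophoblast gene were called, against 33% of all genes, and none of 2 leukocyte genes and 1 of kidney-type cells was. Cdh1 was at 12.9 ± 1.76 against 8.10 ± 0.907 TPM (0.61, adjusted p = 0.00206) and Krt8 at 4.61 ± 0.688 against 2.20 ± 0.258 TPM (0.80, adjusted p = 0.000590). Acp5, an osteoclast phosphatase that is also in the hydrolase list, was at 1.86 ± 0.334 against 1.19 ± 0.274 TPM (0.39, adjusted p = 0.0474). Tubb3, a neuronal tubulin, was lower at 12.3 ± 1.12 against 19.3 ± 1.44 TPM (-0.61, adjusted p = 0.000421). Prl2c2, proliferin, was lower at 1.70 ± 0.432 against 3.29 ± 1.14 TPM (-0.65, adjusted p = 0.0311). The 5 epithelial markers summed to 175 to 212 TPM against 144 to 207 TPM. Krt18 made up most of this sum at 170 ± 16.5 against 165 ± 29.4 TPM and had no call (adjusted p = 0.779). Of 8 tested fibroblast markers 4 were lower (Col1a1, Col1a2, Pdgfrb and Dcn) and 1 higher (Col3a1), and the 10 summed to 2632 to 2944 TPM against 3034 to 3090 TPM. Their part in the lysosomal differences was not tested.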

How the data were processed

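The labels' protocols name RNeasy Plus for RNA extraction and NEBNext Ultra II RNA for library preparation. The submitters' processing notes name bcl2fastq 2.17, STAR 2.5.2b, featureCounts, Subread 1.5.2 and the builds mm10 and GRCh38 with no role given. All gene identifiers are mouse. Per the file headers, the authors deposited TPM values, and each file sums to 1000000. The members and gene lists were chosen with earlier results of these data known.

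A scaling factor per library was the unweighted mean of its log ratios over the tested genes after trimming 30% of ratios and 5% of levels from each end. The values were fitted with limma 3.58.1 in R 4.3.3 as limma-trend on log2(scaled TPM + 1), two-sided, without covariates. The procedure was run on simulated data with independent libraries. Those data lacked the replicate pairing, length trend and chromosome shifts found here, so they do not check the calls against these. Positions and union exon lengths are those of GENCODE M21 on GRCm38, to which mm10 corresponds, with GC content from the longest transcript, promoter windows from RefSeq GRCm38.p6. Gene names Gatsl3, Gatsl2, 2010005H15Rik and Gm5416 stand for 4 listed genes under other symbols. Reads were recovered as TPM times exon length over its step, and 94.5% to 94.8% of values under 20 reads were whole within 0.05 of a read.

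Named are all members, and of each pathway list up to 3 called genes with the largest rise and fall. Same-numbered libraries of the groups deviated together over 9416 genes with a mean log2 value above 3 (Pearson r 0.25, 0.22, 0.32 and 0.12 for numbers 1 to 4), so the block is given where it changes a call. The pairing comes from the numbers in the sample titles. Length and GC trends were removed with natural splines of 4 degrees of freedom each. Chromosome medians were removed in each library before the fit. Each was the median deviation of the chromosome's genes, at a mean log2 value above 3, from their own means. The shift taken out is therefore not exactly the median difference given for a chromosome. Tables and figures were made in Python 3.11.15 (matplotlib 3.10.9, pandas 2.3.3, numpy 2.4.6).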

Additional observations from a re-analysis of the deposited data

Results flagged for a closer look

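In each group of 4 libraries, a library was marked when its gap to the nearest other exceeded, as a share of the range, Dixon's 95% critical value. This happened in 4 of 98 checks over the 49 tested members, where chance marks about 1 in 20. Ctsa was at 91.1 TPM in knockout-labelled library 4, against 81.9 to 83.1 TPM in the other 3. Gusb was at 51.9 TPM in the same library, against 58.0 to 58.5 TPM. Ctsh was at 2.13 TPM in reconstituted library 3, against 2.502 to 2.53 TPM. Atp6v1g2 was at 4.15 TPM in reconstituted library 1, against 3.07 to 3.21 TPM.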

How the results depend on the processing

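The count of higher members was 8 to 12 and that of lower members 10 to 15 under all settings run except 1. With chromosome medians removed, 11 were higher and 4 lower, against 11 and 12. Leaving out single libraries gave 11 to 12 higher and 10 to 13 lower members. With the replicate number as a block, which pairs same-numbered libraries, 12 were higher and 14 lower, no call was lost, and Atp6v0b, Ctsl and Gla were added. The 23 calls all held with upper-quartile scaling, a pseudocount of 0.1 TPM, no mean-variance trend and the length and GC correction.

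Differences changed sign as follows. With chromosome medians removed they were Asah1 at 0.042, Atp6ap1 at 0.041, Atp6v0a1 at -0.031, Atp6v1e1 at 0.032, Atp6v1g1 at 0.045, Cln3 at -0.028, Ctsb at 0.10, Gla at 0.16, Lamp2 at 0.051, Scarb2 at -0.0072 and Smpd1 at -0.073. With the length and GC trend removed, with or without the replicate block, they were Atp6v0e at 0.019, Atp6v1c1 at 0.044, Atp6v1e1 at 0.033 and Ctsc at 0.021. Upper-quartile scaling gave Atp6v0e at 0.025, Atp6v1c1 at 0.021 and Atp6v1e1 at 0.030. Without both libraries numbered 3 they were Atp6v0a1 at -0.015, Atp6v0e at 0.041 and Atp6v1e1 at 0.0075. Leaving out 1 library gave -0.034 to 0.052 for Atp6v0a1, -0.039 to 0.052 for Atp6v0e, -0.041 to 0.029 for Atp6v1c1, -0.024 to 0.019 for Atp6v1e1, -0.10 to 0.019 for Atp6v1g2, -0.016 to 0.034 for Ctsa, -0.10 to 0.0061 for Ctsc and -0.00059 to 0.11 for Smpd1. Of these, Asah1, Atp6ap1 and Lamp2 had a call and the others had none. The cause was not tested. Depth limits the low members most: the lowest library of Atp6v1c2 held 13.7 recovered reads, that of Ctso 72 and that of Ctsh 84.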
